A study of Drosophila melanogaster with 9 samples.

Results

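Wing imaginal discs of Drosophila melanogaster depleted of both NAT10 and Xrp1 were compared with driver-only discs across all genes. The discs, larval epithelial sacs from which the wing blade, hinge and notum later form, were dissected in the third instar. The libraries were chosen by genotype alone, the 3 of the double knockdown (en-GAL4 > UAS-NAT10-RNAi,Xrp1-RNAi) and the 3 of the control (en-GAL4>+), which makes 6 of the 9 libraries of the series. The data columns of the control carry the strain name w1118, and the labels give no strain for the RNAi lines. The other 3 libraries came from discs with RNA interference against NAT10 alone (en-GAL4 > UAS-NAT10-RNAi), and they are given beside the results where they bear on them. All 3 genotypes carried the engrailed driver, and each RNA extraction pooled 100 discs. Since engrailed is a posterior gene, the driver leaves the anterior cells untargeted, and every library mixed both kinds. A lower level in such a mixture cannot be told apart from fewer cells of a type, or from less RNA per cell. Enough counts to be tested were found for 8487 of 14168 entries.

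NAT10 is an enzyme that acetylates cytidines in RNA, ribosomal RNA among them, and the small ribosomal subunit needs it for its assembly. Xrp1 is a bZIP transcription factor that is switched on when ribosomal protein genes are lost and that drives much of the transcriptional response to that loss. In the third instar, pulses of the steroid ecdysone act through the receptor EcR and its partner usp to switch on a cascade of transcription factors and enzymes that prepare the disc for eversion. Damaged discs secrete the relaxin-like peptide Ilp8, which delays that pulse. Heat shock chaperones, by contrast, are induced through the factor Hsf when unfolded protein builds up in the cytosol.

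The control libraries held 14183856 to 18161577 estimated counts and the double knockdown libraries 17981108 to 19949448. Replicate pairs had Pearson correlations of 0.994 to 0.995, and the common biological coefficient of variation was 3.61%. Levels below are normalised CPM, that is counts relative to the library total after its TMM correction, given for the libraries in replicate order or as mean ± SD of 3 libraries. Log2 fold changes are double knockdown minus control, with their standard error. A gene was called at a Benjamini-Hochberg adjusted p under 0.05 in edgeR's quasi-likelihood test. The labels call the libraries biological replicates, without saying whether the discs came from separate crosses. Of 6 wing disc markers, summed at 1921 to 2028 CPM in control and 1971 to 2049 in the double knockdown, none was near 0.

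Both targeted transcripts were lower in the double knockdown, and neither was near absence. The files list the NAT10 gene of the fly under the symbol l(1)G0020, with the identifier FBgn0027330 and a position on the X from 8716713 to 8720277 (BDGP6.54). It stood at 101, 103 and 101 in the control libraries and at 75.2, 77.1 and 71.8 in the double knockdown libraries. The groups did not overlap, and the mean was 73.6% of the control mean (log2 -0.44 ± 0.041, adjusted p = 2.38e-09). With NAT10 alone depleted this transcript was lower still, at 62.2 ± 0.917. Compared directly, the double knockdown was above the NAT10 knockdown (log2 0.26 ± 0.042, adjusted p = 7.11e-06). Xrp1 (FBgn0261113; 3R, 18914968 to 18926989) stood at 511, 526 and 525 in control and 425, 406 and 397 in the double knockdown, 78.6% of control (log2 -0.35 ± 0.028, adjusted p = 1.81e-10). With NAT10 alone depleted Xrp1 was higher than in control, at 941 ± 14.9. The driver locus en, the selector gene of the posterior compartment, fell from 104, 98.5 and 101 to 71.3, 70.96 and 73.1 (adjusted p = 1.96e-10), whereas inv, its neighbour and co-expressed paralogue, stood at 71.8 ± 4.02 and 69.8 ± 3.53 and did not pass (adjusted p = 0.5604).

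Most genes called different from control in the double knockdown were changed by little. Of the 8487 genes 2653 were called, or 31.3%, with 1335 higher (15.7%) and 1318 lower (15.5%). These 2 shares of all genes are the background for every count of list members below. Among the called genes 77.8% differed from control by less than 1.5-fold, and the median size was 1.17-fold (1.27-fold for the higher and 1.14-fold for the lower genes). At least 2-fold differences were found for 331 higher genes (3.90%) and 58 lower ones (0.683%), and at least 8-fold differences for 152 and 8. For 42.4% of all genes the 3 libraries of one group lay entirely on one side of the other group. Higher libraries without overlap were found for 21.3% and lower ones for 21.1%. With NAT10 alone depleted 62.1% of the same genes were called against the same control libraries (32.5% higher, 29.6% lower). Between the knockdowns themselves 56.7% were called, with 28.4% higher in the double knockdown and 28.3% lower.

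The large increases lay among genes that control discs barely transcribed. Of the 331 genes higher by at least 2-fold, 255 (77.0%) had a control level under 1 CPM. Of these, 188 were under 1 CPM with NAT10 alone depleted as well. In all 3 control libraries 60 of the tested genes had 0 counts, of which 50 were called higher. Among the 754 genes under 1 CPM in control 35.5% were higher and 1.19% lower. Among the 2214 genes at 100 CPM or more 14.1% were higher and 31.3% lower, but only 2 of these were higher by at least 2-fold and 0 lower by as much. A gene low in both other genotypes could enter the test only through the libraries in which it was high. For 268 genes fewer than 3 of the control and NAT10 knockdown libraries reached the filter's level, so they entered only through the double knockdown libraries. They were not all silent in control, and 166 of them were called higher by at least 2-fold. In the same way 110 others entered only through the control libraries. The 331 genes together took 0.0971% to 0.0982% of each control library and 0.666% to 0.679% of each double knockdown library.

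**Figure D1:**
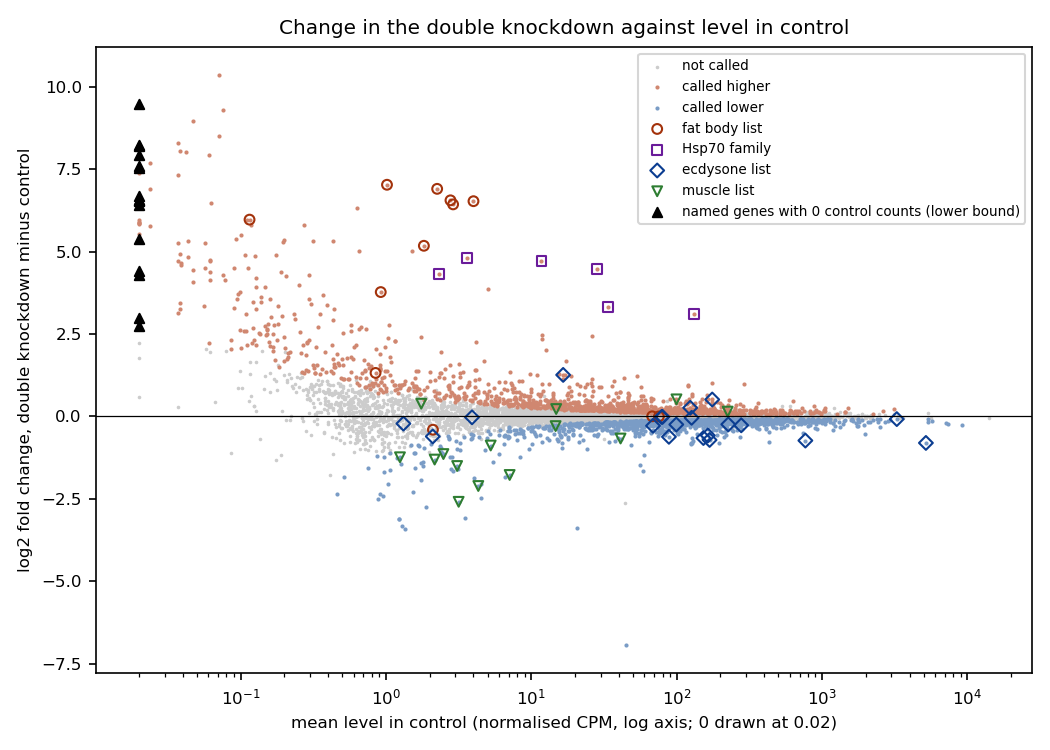
Each point is a gene with counts in both groups, placed by its mean control level (normalised CPM, log axis) and its log2 fold change in the double knockdown; outlined symbols mark members of 4 lists and black triangles named genes with 0 control counts, drawn at their lower bound. Most fat body genes and the outlined Hsp70 genes lie far above 0 on the left and centre. Most ecdysone genes lie slightly below 0 on the right, and most muscle genes below 0 at low control levels.

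**Figure D2:**
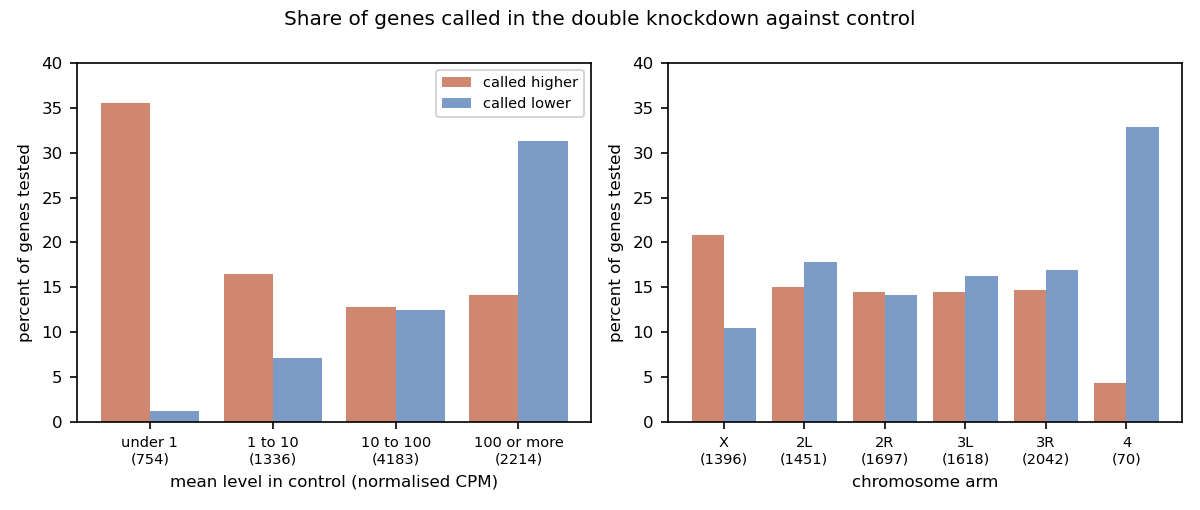
The bars give the percent of tested genes called higher or lower in the double knockdown, by control level in normalised CPM (left) and by chromosome arm (right), with gene numbers under the axis. Higher calls were most frequent under 1 CPM (35.5%) and lower calls at 100 CPM or more (31.3%); chromosome 4 had 32.9% lower calls.

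Storage protein genes of the fat body, the insect organ that corresponds to liver and adipose tissue, and Hsp70 genes gave the increases with the smallest adjusted p. The 4 larval serum protein genes encode hexamerins that the fat body secretes in the last instar as amino acid stores. Lsp1beta (FBgn0002563; 2L, 898500 to 901316) stood at 2.17, 2.41 and 2.17 in control and 272, 273 and 264 in the double knockdown (log2 6.91 ± 0.063, adjusted p = 2.17e-31). Lsp1gamma stood at 3.46, 4.68 and 3.87 against 375, 373 and 350.4, and Lsp2 at 2.45, 3.19 and 2.69 against 254, 264 and 260.1. Each control library was under 5 CPM and each double knockdown library over 200 for these genes. Lsp1alpha rose to 131 ± 2.48 from 1.02 ± 0.354. Fbp1, the receptor through which fat body takes hexamerins back up, stood at 2.51, 2.56 and 3.63 and rose to 258, 249 and 249.5 (log2 6.43 ± 0.077). The lipoprotein gene apolpp rose to 67.2 ± 3.22 from 1.82 ± 0.454 and the alcohol dehydrogenase gene Adh to 8.09 ± 0.432 from 0.115 ± 0.117.

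The fat body list held 14 genes, of which 13 were tested, 4 of them under 1 CPM in control. Of the 13, 10 were higher (76.9%, against 15.7% of all genes) and 0 lower. The median log2 fold change was 5.97 (5.18 with the gene at 0 in control set to its lower bound) against 0.00 over all genes tested. The 3 members that did not pass were Mtp (-0.00), the fatty acid synthase gene FASN1 (0.00) and Ilp6 (-0.40), of which Mtp and FASN1 were also the only tested members over 10 CPM in control. The 7 defining fat body markers summed to 14.7 to 17.0 CPM in control, 1330 to 1377 in the double knockdown and 65.3 to 73.4 with NAT10 alone depleted. None of the 7 was at 0 in control. These sums move with every other change in the double knockdown described here, and their part in those changes was not tested.

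Among heat shock genes all 7 tested members of the Hsp70 family rose. The 6 Hsp70 copies encode nearly identical cytosolic chaperones, so reads can be split among them and the single copies are uncertain. Their sum was 180.3, 176.6 and 177 in the control libraries and 2263, 2239 and 2195 in the double knockdown, a 12.5-fold difference, with 426 to 435 in the NAT10 knockdown. All 6 copies were called higher, from Hsp70Ab (log2 3.11 ± 0.028) to Hsp70Bc (4.80 ± 0.11), and Hsp70Aa, with 0 control counts, was at least 29.03-fold higher. Hsp68, a separate inducible member of the family, stood at 33.3, 31.6 and 35.97 in control and 339.8, 338 and 331 in the double knockdown. All 3 double knockdown libraries lay over 300 and all control libraries under 40 (log2 3.32 ± 0.042, adjusted p = 2.15e-28). Per transcript length, the deposited FPKM of Hsp70Ab went from 55.2 ± 0.722 to 485 ± 12.2 and that of Hsp68 from 14.9 ± 0.9898 to 152 ± 3.15.

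Of 10 tested regulators and other cytosolic chaperones 4 were higher and 3 lower (40% and 30%, against 15.7% and 15.5% of all genes), with a median of 0.02. The Hsp40 co-chaperone gene DnaJ-1 stood at 169.7, 177 and 180.2 against 356, 359 and 339.5 (log2 1.00 ± 0.030, adjusted p = 1.31e-19), and the BAG-domain co-chaperone gene stv at 50.05, 54.9 and 53.9 against 124, 125 and 119 (log2 1.21 ± 0.043). The libraries of the groups did not overlap for either gene. The Hsp90 gene Hsp83 rose by 0.22 ± 0.023 and the mitochondrial chaperonin gene Hsp60A by 0.16 ± 0.033. The regulator gene Hsf fell by 0.14 ± 0.038, with Hsc70Cb and Droj2 at -0.10 and -0.11, both called lower. The small heat shock genes went both ways, with 3 higher and 3 lower of 9 (33.3% each) and a median of 0.01. Hsp26 rose from 264, 299 and 306 to 543, 576 and 588 (log2 0.98 ± 0.055, adjusted p = 5.99e-07), while Hsp23 fell from 1952, 1987 and 1992 to 1359, 1360 and 1369 (log2 -0.54 ± 0.024, adjusted p = 1.11e-15). Hsp27, next in the same family cluster, stood at 2010 ± 6.12 and 1980 ± 28.4 and did not pass. Hsp22 rose by 3.86 ± 0.075, but 100% of its exon sequence is also exon of another gene, so its reads cannot be assigned to it alone.

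Several genes went from 0 counts in control to levels of 5 CPM or more. The alkaline phosphatase gene Alp7 (FBgn0034710; 2R, 22203694 to 22205593) had 0 counts in each control library and stood at 47.8, 40.1 and 42.6 in the double knockdown, at least 714-fold higher when 3 counts over the control group are taken as the floor. Its neighbour Alp8 (11.6, 12.3 and 10.3; at least 186-fold) and Alp4 (11.1, 11.2 and 13.1; at least 194-fold) showed the same pattern. Of 13 alkaline phosphatase genes 5 were tested, and the other 2 of these, Alp11 and Alp12, did not pass (-0.25 and -0.05). Muc11A, a mucin gene, had 3 counts in 1 control library and 0 in the others, and stood at 87.9, 90.1 and 88.03 in the double knockdown, or 1451 (95% counting interval 496 to 7036) times control. With NAT10 alone depleted it had 0 counts in every library.

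Some genes annotated in the deposited table as membrane transporters also had 0 counts in control. CG17752 (3R, 19610225 to 19612437) stood at 18.9, 18.2 and 17.5 in the double knockdown, at least 298-fold above control, CG16727 at 14.1, 14.2 and 16.4 (at least 244-fold) and CG7882 at 6.07, 5.71 and 6.92 (at least 102-fold). As a group transporters did not share this. Of 34 tested genes on the list of solute carriers 9 were higher (26.5%), 7 lower (20.6%) and 18 not called. Over all genes 15.7% were higher and 15.5% lower. The median of the list was 0.02, and 3 of its genes were at 0 in control. The uncharacterised gene CG10513 was at 18.3, 20.9 and 15.9, at least 299-fold higher. CG31198, annotated as a metallopeptidase, CG15155, annotated as an acyltransferase, CG16762 and the sarcoplasmic calcium-binding protein gene Scp2 lay between 4.83 and 6.53 in every double knockdown library, at least 85.7-fold to 95.5-fold above control. The control libraries had no counts of these genes, and the choice of genes required that the groups not overlap. In the NAT10 knockdown each of these genes averaged under 0.1 CPM.

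Some increases of at least 2-fold fell on neighbouring genes. Of 309 such genes with a mapped position 89 (28.8%) lay in 39 runs of adjacent tested genes that all rose at least 2-fold. Among the 7975 mapped genes that did not rise by as much, 6.31% had such a gene on at least one side. Of the 331 genes higher by at least 2-fold, 166 entered the test only through the double knockdown libraries, and genes not tested were skipped. These shares therefore depend on the filter, and whether the increases cluster was not tested. The longest runs held 4 genes. One contained CG7342, CG17751, CG17752 and CG16727 (3R, 19603375 to 19615784), another CG11889, CG10513, CG10514 and CG11892 (3R, 25270209 to 25283237) and another the putative sugar transporter genes CG33281, CG33282 and CG3285 with CG15408 (2L, 3324237 to 3334790). The remaining run of 4 held Hsp70Ba, Hsp70Bbb, Hsp70Bb and Hsp70Bc, whose near-identity lets reads of one be counted to another. Oatp58Da, Oatp58Db and Oatp58Dc, which encode organic anion transporters, formed a run of 3 and were at least 24.5-fold to 41.4-fold above control.

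Alp4 and the Oatp58D genes are known from the Malpighian tubule, the renal organ of the fly. Of 16 genes listed for that organ 10 were tested, and 7 were called higher and 1 lower. Since 5 of the 10 had 0 control counts and could be tested only where they were high, nothing is read from that count. The urate oxidase gene Uro, which defines the tubule, had 0 control counts and stood at 1.004, 0.934 and 1.103 in the double knockdown. The phosphate cotransporter gene NaPi-T rose to 5.57 ± 0.636 from 1.03 ± 0.407 and the potassium channel gene Irk3 to 4.14 ± 0.293 from 0.441 ± 0.178, while Irk1, which the disc also transcribes, fell from 53.2 ± 2.36 to 37.2 ± 0.4897 (adjusted p = 5.45e-08). The 8 defining tubule markers summed to 0.557 to 0.852 CPM in control, 20.9 to 22.9 in the double knockdown and 0.343 to 1.18 with NAT10 alone depleted. Of these, 6 were at 0 in all control libraries. ZnT35C, CapaR and Lkr stayed under 1 CPM in the double knockdown too. The 6 midgut markers summed to 0.710 to 0.762 in control and 0.201 to 0.451 in the double knockdown, and none was tested. Whether tubule or fat body cells came with the discs was not tested.

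Most muscle genes tested fell in the same libraries. The muscle myosin heavy chain gene Mhc stood at 7.75, 7.45 and 6.09 in control and 1.91, 1.87 and 2.41 in the double knockdown (log2 -1.78 ± 0.17, adjusted p = 8e-09). The troponin T gene up fell by 2.11 ± 0.29, the myofilin gene Mf by 2.59 ± 0.30, and the troponin I gene wupA went from 3.09 ± 0.239 to 1.09 ± 0.258. Of 14 tested muscle genes 10 were lower (71.4%, against 15.5% of all genes) and 2 higher (14.3%, against 15.7%), with a median of -1.01. The higher ones were the giant sarcomere protein gene sls, at 99.7 ± 4.71 against 143 ± 6.86, and Zasp52 (log2 0.15 ± 0.028), which were also the members with the highest control levels. The 7 defining muscle markers summed to 85.9 to 87.4 CPM in control, 58.0 to 61.7 in the double knockdown and 45.3 to 50.9 in the NAT10 knockdown. Of 8 genes of the adult muscle precursors, which sit on the disc as a layer of undifferentiated cells, 1 was higher (12.5%) and 2 were lower (25%). One of the lower ones was how (-0.28 ± 0.041). The other calls, Ama higher and zfh1 lower, were lost with DESeq2 (adjusted p = 0.113 and 0.0895).

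Among blood cell genes 3 of 10 were lower (30%, against 15.5% of all genes) and 0 higher. The prophenoloxidase genes PPO1 and PPO2, which mark crystal cells, fell from 4.18, 4.97 and 4.45 to 0.954, 0.824 and 1.45 and from 5.57, 7.45 and 6.62 to 1.56, 1.87 and 2.06 (adjusted p = 1.83e-07 and 6.63e-08). No double knockdown library reached the lowest control library for either gene. The third, the macrophage scavenger receptor gene crq, was at -0.19 ± 0.056 (adjusted p = 0.0108), a call lost without double knockdown replicate 2 (adjusted p = 0.0537). The macrophage markers Hml, eater and Pxn did not pass (log2 -0.24, -0.08 and -0.08). The 7 defining blood cell markers summed to 24.5 to 26.0 CPM in control, 14.5 to 16.2 in the double knockdown and 14.6 to 17.1 with NAT10 alone depleted. Of these markers only PPO1 and PPO2 were called in the double knockdown, so the sum largely repeats their fall. Tracheal genes were higher in 3 of 5 cases (60%, against 15.7% of all genes), among them the chitin-binding protein gene Gasp, at 95.5, 104 and 99.6 against 129, 134 and 131. The 5 summed to 888 to 916 CPM in control and 1007 to 1049 in the double knockdown. Neuronal and glial genes were higher in 3 of 6 cases (50%, against 15.7% of all genes), with nrv2 at 200 ± 9.54 against 268 ± 7.03. The pan-neuronal gene elav stood at 83.7 ± 5.59 and 85.97 ± 1.12 and did not pass. The 6 defining neuronal and glial markers summed to 94.0 to 105 CPM in control and 99.3 to 102 in the double knockdown, ranges that overlapped.

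Of 20 tested ecdysone genes 11 were below control in the double knockdown (55%), each by less than 2-fold. Over all genes 15.5% were lower, and 31.3% of those at 100 CPM or more in control, where ImpE1, ImpE2, ImpE3 and Blimp-1 lay. A further 3 ecdysone genes were higher and 6 did not pass, and the median of the list was -0.24. ImpE2 (FBgn0001254; 3L, 3510974 to 3512681), which ecdysone induces in discs during eversion, stood at 5386, 5020 and 5136 in control and 2957, 2841 and 3102 in the double knockdown. The groups did not overlap, and the double knockdown mean was 57.3% of control (log2 -0.80 ± 0.033, adjusted p = 6.22e-14). Its level in the NAT10 knockdown was 186 ± 6.71. ImpE1 stood at 808, 749 and 747 against 469, 461 and 456, and ImpE3 at 155, 147 and 156 against 97.5, 96.8 and 96.6, again without overlap. The repressor gene Blimp-1, which times the switch from early to late genes, fell from 179, 159 and 168 to 106, 98.2 and 104 (log2 -0.71 ± 0.043, adjusted p = 4.64e-13).

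The nuclear receptor genes of the cascade went both ways. Eip78C fell by 0.62 ± 0.048, Hr4 by 0.58 ± 0.062, Eip75B by 0.27 ± 0.064 and Hr39 by 0.24 ± 0.032 on the log2 scale. Hr3 was at -0.28 ± 0.071 (adjusted p = 0.00495), but 61.8% of its exon bases are shared with another gene. The protease gene Sb, needed for disc elongation, fell by 0.25 ± 0.045. The broad gene br, an early target, was at 3368, 3198 and 3234 against 3102, 3045 and 3118 (log2 -0.08 ± 0.025, adjusted p = 0.0146), a call lost with libraries scaled by total counts (adjusted p = 0.0962) and without double knockdown replicate 2 (adjusted p = 0.0913). The receptor gene EcR rose, from 183, 172 and 172 to 258, 245 and 249.9 (log2 0.51 ± 0.031, adjusted p = 4.84e-13), as did Eip74EF (0.26 ± 0.039) and ftz-f1, whose transcription normally follows the fall of the hormone. The ftz-f1 level was 16.7, 16.96 and 15.99 in control and 41.01, 39.5 and 38.4 in the double knockdown, with 108 ± 0.85 in the NAT10 knockdown. The partner gene usp did not pass (-0.01 ± 0.043, adjusted p = 0.845), nor did the nuclear receptor gene Hr38 (-0.22 ± 0.33, adjusted p = 0.665).

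The NAT10 knockdown shared these control libraries, so the values of both comparisons are only set side by side. The NAT10 transcript itself was also lower in the NAT10 knockdown than in the double knockdown. With NAT10 alone depleted the log2 fold changes were -4.80 for ImpE2, -4.38 for ImpE1, -8.69 for Blimp-1, -7.06 for Hr4, -5.84 for Eip78C and 0.86 for EcR. The direct comparison of both knockdowns put Blimp-1 higher in the double knockdown by 7.98 ± 0.11 and ImpE1 by 3.64 ± 0.039 (adjusted p = 7.38e-28 and 6.8e-30), and ImpE2 had an adjusted p of 1.04e-25. EcR was -0.34 ± 0.029 and ftz-f1 -1.44 ± 0.044 in that comparison (adjusted p = 1.39e-10 and 5.07e-20).

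**Figure D3:**
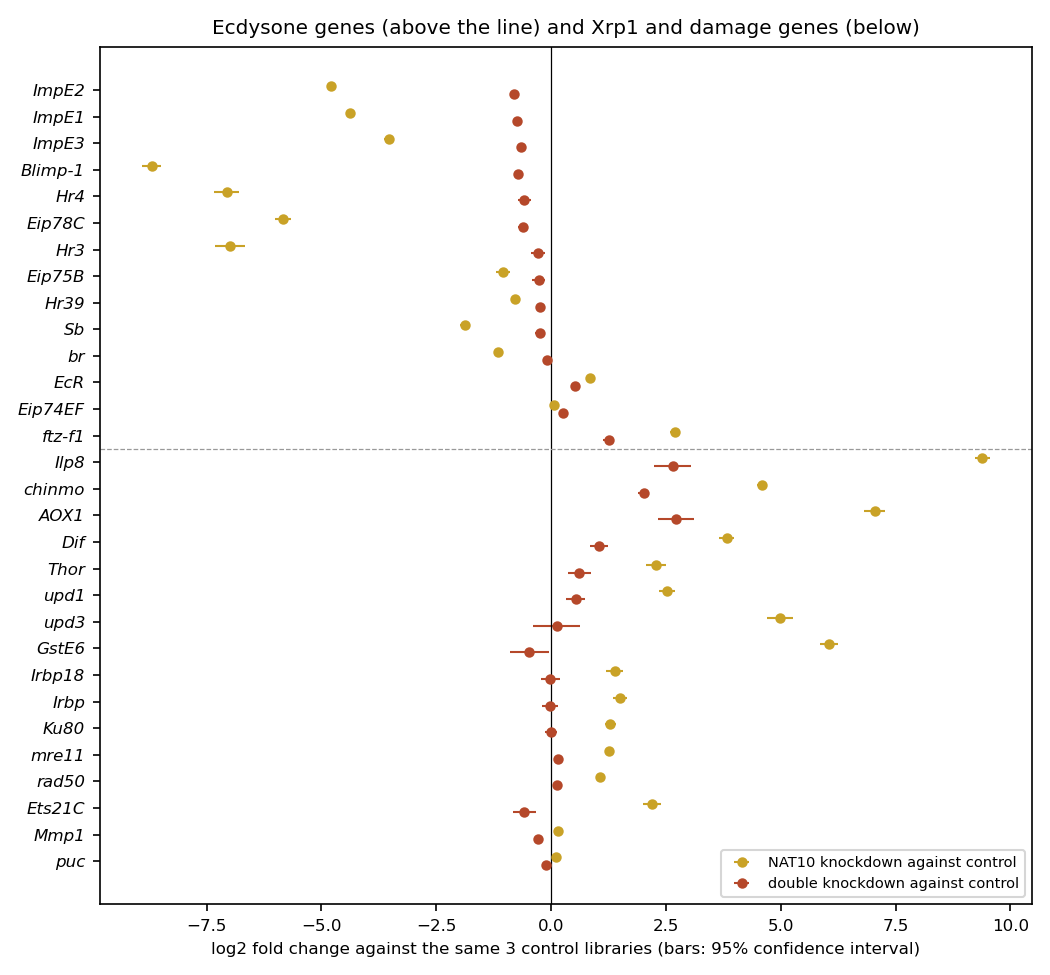
Points are log2 fold changes of the NAT10 knockdown (yellow) and the double knockdown (red) against the same 3 control libraries, with 95% confidence intervals from the fit, for ecdysone genes (above the dashed line) and for Xrp1, damage and stress genes (below it). The red points lie within 1 unit of 0 for every ecdysone gene except ftz-f1, and Ilp8, chinmo, AOX1 and Dif lie above 1.

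Genes that respond to Xrp1 and to disc damage fell into 3 sets, told apart after their values were seen. The first was not called different from control. Irbp18, whose C/EBP-family product dimerises with Xrp1, was at 11.4, 10.6 and 11.9 in control and 9.94, 12.6 and 11.2 in the double knockdown, with overlapping libraries and a 95% confidence interval of the log2 difference of -0.22 to 0.19. The Ku70 gene Irbp and Ku80, which encode the end-joining heterodimer, had intervals of -0.20 to 0.15 and -0.12 to 0.13. The cytokine gene upd3, at 0.922 ± 0.0798 and 0.998 ± 0.008496, had an interval of -0.39 to 0.64. For the JNK phosphatase gene puc the interval was -0.1993 to -0.0009. Every double knockdown library lay under every control library for puc, without a call (adjusted p = 0.12). Compared directly with the NAT10 knockdown, the double knockdown differed by -1.40 ± 0.087 for Irbp18, -1.53 ± 0.075 for Irbp, -1.29 ± 0.055 for Ku80 and -4.86 ± 0.13 for upd3 (the largest of the 4 adjusted p-values was 2.26e-13). The glutathione transferase gene GstE6 went from 1.78, 1.42 and 1.99 to 1.255, 1.59 and 0.952, against 116 ± 3.17 with NAT10 alone depleted. Its libraries overlapped those of control, but the estimate lay below control (log2 -0.48 ± 0.21, interval -0.90 to -0.05, adjusted p = 0.0978).

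A second set was above control. Ilp8, at 0.725, 0.781 and 0.469 in control, stood at 4.92, 3.899 and 3.56 in the double knockdown and at 440.5 ± 5.099 in the NAT10 knockdown. All 3 double knockdown libraries exceeded the highest control library (log2 2.65 ± 0.20, adjusted p = 3.14e-11). The BTB-domain transcription factor gene chinmo stood at 13.7, 12.4 and 11.8 against 51.95, 51.2 and 50.8 (log2 2.02 ± 0.055, adjusted p = 1.32e-20), and the aldehyde oxidase gene AOX1 at 0.725, 0.639 and 0.644 against 4.47, 3.85 and 5.06. Dif, an NF-kappaB factor of the Toll pathway, rose by 1.04 ± 0.097, Thor, the gene of the translation inhibitor 4E-BP, by 0.62 ± 0.12 and the cytokine gene upd1 by 0.54 ± 0.098. The stress peptide gene TotA stood at 0.0557, 0.213 and 0.117 against 2.11, 2.25 and 2.81 and was at 0.671 ± 0.236 in the NAT10 knockdown (double against NAT10 knockdown, log2 1.83 ± 0.31, adjusted p = 1.51e-05). The repair genes mre11 and rad50 were at 0.16 ± 0.043 and 0.12 ± 0.038, calls that were lost when single libraries were left out, mre11 without double knockdown replicate 1 and rad50 without control replicate 3 or double knockdown replicate 2 (adjusted p = 0.063, 0.0707 and 0.0729).

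The third set went below control. The lactate dehydrogenase gene Ldh was at 13.1, 17.8 and 18.3 in control and 11.1, 12.2 and 12.8 in the double knockdown (log2 -0.44 ± 0.11). The matrix metalloprotease genes Mmp1 and Mmp2 fell by 0.28 ± 0.037 and 0.34 ± 0.043, the AP-1 gene Jra by 0.23 ± 0.046, and the ETS factor gene Ets21C, with 28.3% of its exon bases shared with another gene, by 0.58 ± 0.13. The pro-apoptotic gene hid fell by 0.25 ± 0.038 and the initiator caspase gene Dronc by 0.38 ± 0.049. Of 10 cell death genes 4 were lower (40%, against 15.5% of all genes) and 0 higher. Gadd45 fell from 66.8 ± 2.75 to 57.9 ± 0.518, against 134 ± 2.23 in the NAT10 knockdown. Counted by list, where 15.7% of all genes were higher and 15.5% lower, 4 of 11 genes of the response to ribosomal protein loss were higher and 2 lower (36.4% and 18.2%). The counts were 3 and 6 for 13 damage genes (23.1% and 46.2%), 4 and 0 for 12 JAK-STAT genes (33.3% and 0%) and 4 and 2 for 18 DNA damage genes (22.2% and 11.1%). In the NAT10 knockdown, with the same controls and with 32.5% of all genes higher and 29.6% lower, these counts were 11 and 0, 7 and 4, 9 and 1, and 16 and 1.

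**Figure D4:**
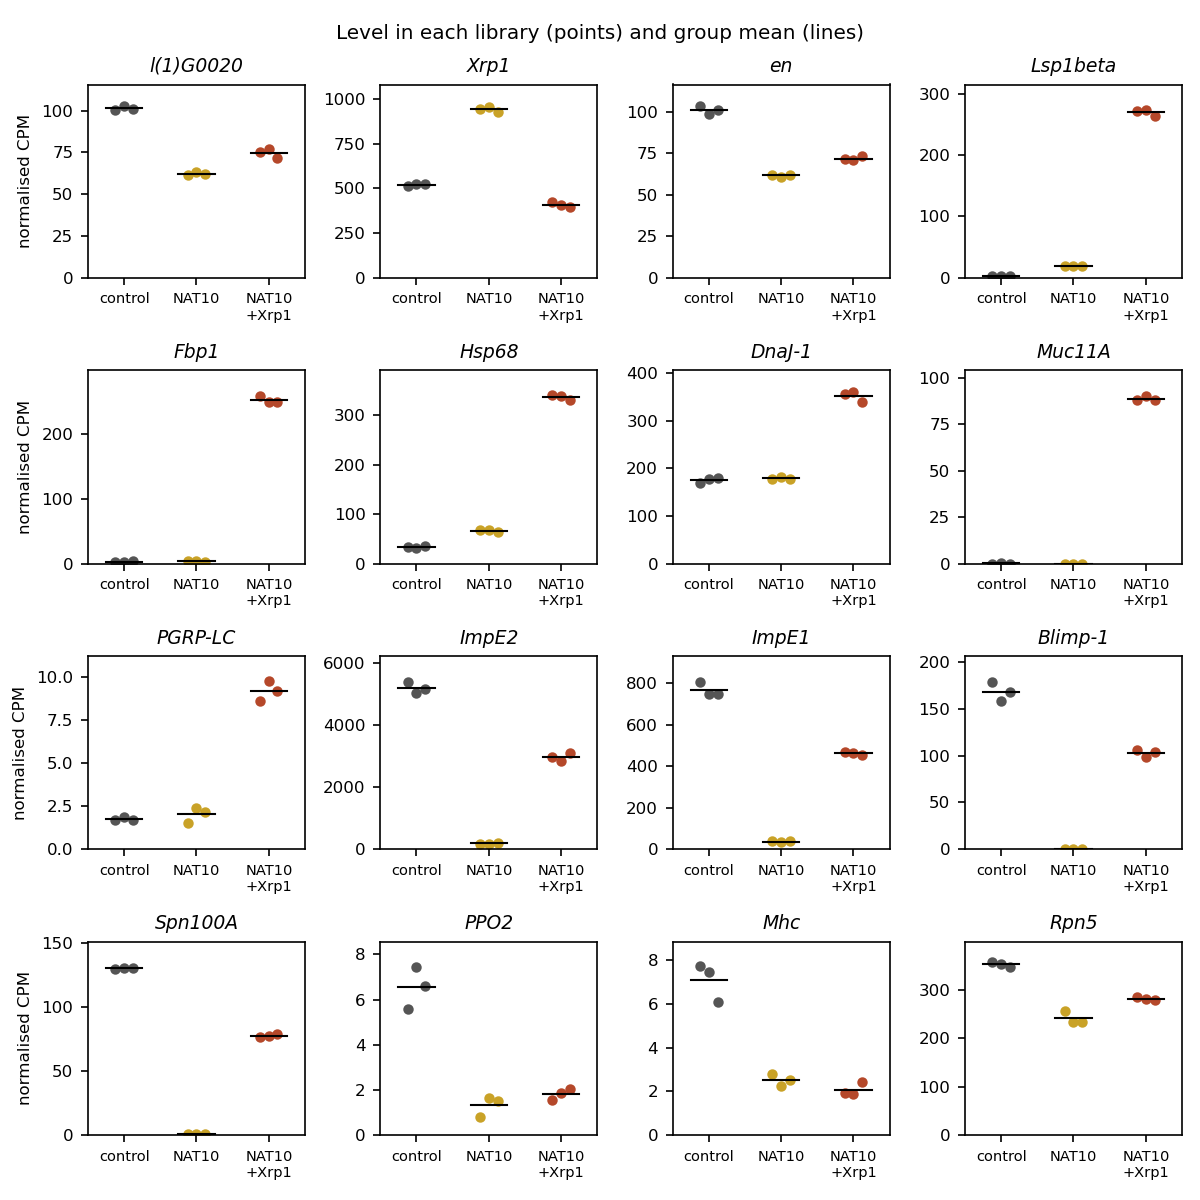
The level of 16 genes (normalised CPM, axes from 0) is shown in each library as a point and for each genotype as a line at the mean. Lsp1beta, Fbp1, Hsp68, DnaJ-1, Muc11A and PGRP-LC are high in the 3 double knockdown libraries, ImpE2, ImpE1, Blimp-1 and Spn100A lie between control and the NAT10 knockdown there, and PPO2 and Mhc are low in both knockdowns.

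Many genes for protein degradation and for the secretory pathway were lower by small amounts. Of 32 proteasome subunit genes 20 were lower (62.5%), 0 higher and 12 not called, with a median of -0.14. Over all genes 15.5% were lower, and 31.3% of those at 100 CPM or more in control. Rpn5, a subunit of the regulatory lid, stood at 356, 354 and 348 against 284, 281 and 279 (log2 -0.33 ± 0.030, adjusted p = 3.08e-09), and the catalytic subunit genes Prosbeta2 and Prosbeta5 fell by 0.29 ± 0.030 and 0.26 ± 0.029. Of 20 chaperones and stress genes of the endoplasmic reticulum 11 were lower (55%) and 0 higher (median -0.15). The BiP gene Hsc70-3 stood at 1330, 1321 and 1313 against 1061, 1053 and 1047 (log2 -0.33 ± 0.024, adjusted p = 2.75e-11) and the disulphide isomerase gene Pdi at 1750, 1787 and 1792 against 1435, 1449 and 1445. For these genes every double knockdown library lay under every control library. Of 16 translocon and signal recognition genes 8 were lower (50%) and 0 higher, with Sec61gamma at -0.37 ± 0.041 and Sec61alpha at -0.26 ± 0.025. Of 20 aminoacyl-tRNA synthetase genes 8 were lower (40%) and 0 higher, with ValRS at -0.21 ± 0.039.

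Genes for amino acid synthesis and stress signalling under ATF4 went both ways, with 4 higher and 3 lower of 11 (36.4% and 27.3%, against 15.7% and 15.5% of all genes). The asparagine synthetase gene AsnS rose from 13.04, 12.6 and 10.7 to 19.6, 22.2 and 20.1 (log2 0.76 ± 0.092) and Sesn rose by 1.06 ± 0.28. The phosphoglycerate dehydrogenase gene CG6287, which opens serine synthesis, fell from 186, 178 and 192 to 134, 137 and 149 (log2 -0.41 ± 0.040). The ATF4 gene crc was at -0.14 ± 0.026, with 73.5% of its exon bases shared with another gene.

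Most ribosomal protein genes did not pass. Of 82 tested genes for cytosolic ribosomal proteins 11 were higher (13.4%, against 15.7% of all genes) and 5 lower, with a median of 0.05, and with total-count scaling 17 were higher. RpS3 stood at 1407, 1448 and 1433 against 1549, 1599 and 1582 (log2 0.14 ± 0.024) and RpL40 rose by 0.16 ± 0.026. The paralogue RpS19b, at a low level of 1.11, 1.14 and 0.996 in control, stood at 3.16, 3.46 and 3.56 and was the only member that rose by at least 2-fold. Of 32 ribosome biogenesis genes 8 were higher (25%, against 15.7% of all genes) and 0 lower, with the box C/D snoRNP gene nop5 at 0.20 ± 0.027 and the GTPase gene Non1 at 0.20 ± 0.028. Of 73 genes for mitochondrial ribosomal proteins 7 were higher and 4 lower (9.59% and 5.48%, against 15.7% and 15.5% of all genes). Of 65 nuclear genes for oxidative phosphorylation 0 were higher and 5 lower, ND-15 among them (-0.35 ± 0.054), with a median of -0.01 that was 0.02 with total-count scaling.

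Of 32 cell cycle and replication genes 18 were higher (56.2%, against 15.7% of all genes) and 2 lower, with a median of 0.10. The replicative helicase genes Mcm6, Mcm3 and Mcm2 rose by 0.21 ± 0.036, 0.23 ± 0.042 and 0.19 ± 0.034, the sliding clamp gene PCNA by 0.14 ± 0.029 and the origin recognition gene Orc6 by 0.34 ± 0.099. The mitotic phosphatase gene stg rose by 0.14 ± 0.039. CycA and Cdk4 were the lower ones (-0.14 ± 0.027 and -0.20 ± 0.043). The growth regulator gene Myc was at 294, 284 and 275 against 359.9, 353 and 359 (log2 0.33 ± 0.029, adjusted p = 8.71e-10), with 40.9% of its exon bases shared with another gene.

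**Figure D5:**
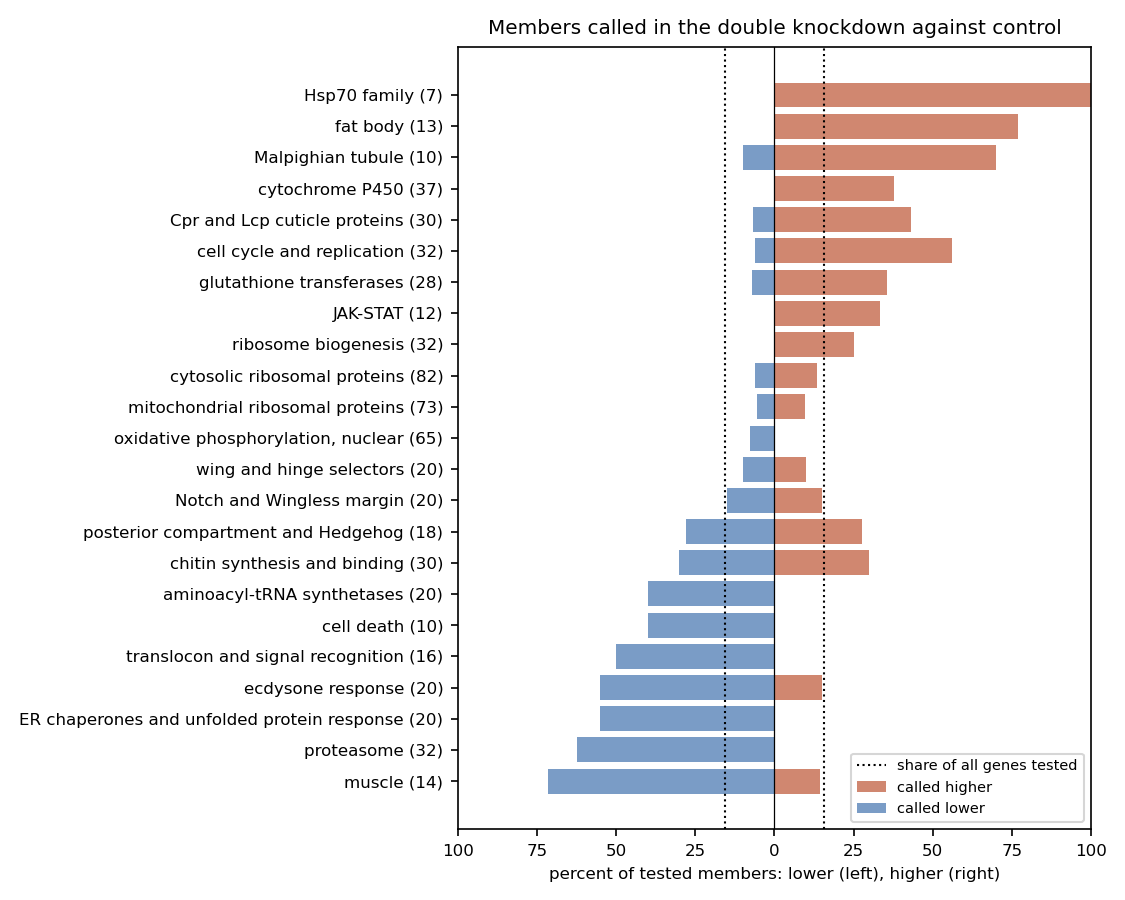
Bars give the percent of tested members of each list that were called higher (right) or lower (left) in the double knockdown against control, with the number tested in brackets and dotted lines at the shares of all genes tested (15.7% and 15.5%). All 7 Hsp70 family genes were higher, and no proteasome, ER chaperone, translocon or aminoacyl-tRNA synthetase gene was.

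Genes of the cuticle went both ways. Of 30 tested genes of the Cpr and Lcp cuticle families 13 were higher (43.3%) and 2 lower, and 14 of the 30 were under 1 CPM in control, where 35.5% of all genes were higher. Cpr49Ah rose from 19.2, 18.4 and 18.6 to 48.3, 39.3 and 43.9 and Lcp3 from 0.557, 0.639 and 0.527 to 4.17, 3.62 and 4.11, whereas Cpr49Ac, the most abundant of those named, fell from 440.3, 417 and 429.5 to 244, 251 and 253 (log2 -0.78 ± 0.031, adjusted p = 5e-17). Of 30 genes for chitin synthesis and binding 9 were higher and 9 lower (30% each, against 15.7% and 15.5% of all genes). The chitinase genes Cht7 and Cht5 went in opposite directions, at 0.55 ± 0.042 and -0.60 ± 0.048. In cuticle tanning 4 of 14 genes were higher (28.6%) and 3 lower (21.4%), with a median of 0.13. The gene amd, which encodes a relative of dopa decarboxylase, rose from 11.8, 11.2 and 10.5 to 17.8, 17.1 and 19.4 (log2 0.69 ± 0.086, adjusted p = 4.64e-07). The tyrosine hydroxylase gene ple fell from 5.68, 6.03 and 4.75 to 2.66, 2.14 and 1.45, and ebony (e), which makes beta-alanyl-dopamine, fell from 1.17, 0.994 and 0.703 to 0.0502, 0.2197 and 0.251.

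Of 37 tested cytochrome P450 genes 14 were higher (37.8%) and 0 lower. In control 17 of the 37 were under 1 CPM, a level at which 35.5% of all genes were higher. Cyp309a1 stood at 7.23, 8.18 and 7.62 against 2 counts in all of control, or 188 (95% counting interval 51.8 to 1558) times that group, and its neighbour Cyp309a2 at 4.17, 7.25 and 5.56 against 1 count. Cyp6g1, a gene known for insecticide resistance, rose from 0.108 ± 0.106 to 3.25 ± 0.249. Of 28 glutathione transferase genes 10 were higher (35.7%, against 15.7% of all genes) and 2 lower. GstE1 stood at 16.3, 15.6 and 17.5 against 34.3, 36.6 and 37.1 (log2 1.13 ± 0.068, adjusted p = 6.4e-13), while the abundant GstD1 fell by 0.24 ± 0.026. Of 14 antioxidant genes 2 were higher (14.3%) and 6 lower (42.9%, against 15.5% of all genes). The catalase gene Cat was at 445, 465 and 468 against 369, 376 and 366 (log2 -0.31 ± 0.027, adjusted p = 9.55e-10).

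In immunity, 4 of 12 tested genes of the Toll and Imd pathways were higher and 2 lower (33.3% and 16.7%, against 15.7% and 15.5% of all genes). PGRP-LC, the transmembrane peptidoglycan receptor of the Imd pathway, rose from 1.67, 1.84 and 1.699 to 8.58, 9.78 and 9.17 (log2 2.40 ± 0.17, adjusted p = 1.71e-11), against 2.04 ± 0.448 with NAT10 alone depleted. The intracellular receptor gene PGRP-LE went the other way, from 41.8, 34.8 and 37.7 to 26.5, 27.7 and 26.9 (log2 -0.50 ± 0.071). No antimicrobial peptide gene passed the filter on low counts. Of 12 serpin genes 4 were lower (33.3%) and 2 higher (16.7%). Spn100A stood at 129, 129.9 and 130.5 against 76.5, 76.9 and 78.8 (log2 -0.75 ± 0.042, adjusted p = 1.03e-13), with 0.912 ± 0.2497 in the NAT10 knockdown, and Spn43Aa fell by 0.39 ± 0.028. In the small RNA pathways 4 of 22 tested genes were higher (18.2%) and 2 lower (9.09%), with a median of 0.04. Over all genes 15.7% were higher and 15.5% lower. Among the called members the piRNA factor genes krimp and qin rose by 1.13 ± 0.13 and 0.78 ± 0.13. AGO2, the effector of RNA interference, fell by 0.18 ± 0.026.

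Most patterning genes of the disc did not pass. Of 20 wing and hinge selector genes 2 were higher and 2 lower (10% each, against 15.7% and 15.5% of all genes). In the NAT10 knockdown, against the same controls, 2 were higher and 17 lower. There 32.5% of all genes were higher and 29.6% lower. Of 20 Notch and Wingless genes 3 were higher and 3 lower in the double knockdown (15% each), near the shares of all genes. The wing pouch gene nub stood at 303, 305 and 298 and 294, 290 and 302 and the dorsal selector gene ap at 528, 510 and 510.2 and 516, 512 and 503. The libraries overlapped for both genes, and neither passed (log2 -0.03 ± 0.026 and -0.02 ± 0.027, adjusted p = 0.372 and 0.69). The signal gene wg fell from 137, 129.8 and 133 to 111, 108 and 118 (log2 -0.25 ± 0.039, adjusted p = 1.16e-05), and Notch (N) rose from 829, 825 and 815 to 906, 926 and 937 (log2 0.17 ± 0.026). The vein and intervein regulator genes kn and bs fell by 0.40 ± 0.064 and 0.30 ± 0.040, and the sensory precursor gene sens by 0.58 ± 0.13.

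In the Hedgehog and Dpp pathways 5 of 18 genes were higher and 5 lower (27.8% each, against 15.7% and 15.5% of all genes). The ligand gene hh fell by 0.20 ± 0.044 and the transducer gene smo by 0.18 ± 0.036. The receptor gene ptc, itself a target, rose by 0.12 ± 0.029, and the Dpp target genes salm, salr and Dad by 0.14 ± 0.027, 0.15 ± 0.026 and 0.12 ± 0.032. Of 16 genes for adhesion and polarity 2 were higher (12.5%) and 6 lower (37.5%). Among them were the E-cadherin gene shg, at 1087, 1062 and 1058 against 988, 968 and 934 (log2 -0.15 ± 0.026), and Nrg, which rose by 0.15 ± 0.026. Both stood at 100 CPM or more in control, a level at which 31.3% of all genes were lower. Of 15 Hippo and growth genes 4 were higher and 2 lower (26.7% and 13.3%), and of 14 insulin and TOR genes 2 and 3 (14.3% and 21.4%).

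Among genes that fell at least 2-fold the largest changes were at loci assembled from the reads rather than at annotated genes. Of 167 such loci tested 69 were called, or 41.3% against 31.3% of all genes, with 38 higher and 31 lower. By at least 2-fold 21 were higher and 10 lower. The 2 with the symbol Tf2-12 in the deposited table fell from 14.3, 10.8 and 17.4 to 0 in every library, at least 278-fold, and from 47.4, 45.4 and 42.2 to 0.452, 0.3295 and 0.301 (log2 -6.93 ± 0.14, adjusted p = 6.35e-24). With NAT10 alone depleted their means were 14.5 ± 4.49 and 66.9 ± 4.18. A locus described there as a probable gag protein fell from 21.5, 20.01 and 20.6 to 1.81, 2.42 and 1.704 (log2 -3.39 ± 0.12). Loci of this kind belong to repeated elements, so reads of one copy may be counted at another, and no position is given for them.

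Annotated genes that fell by 2-fold or more included several that were not lower in the NAT10 knockdown. Apl stood at 67.5, 53.01 and 55.1 in control, 21.5, 19.9 and 14.9 in the double knockdown and 66.9 ± 3.45 in the NAT10 knockdown (log2 -1.65 ± 0.15, adjusted p = 0.000116). Arts, its paralogue on the adjacent stretch of the chromosome (3L, 16602851 to 16608146, with Apl at 3L, 16595181 to 16600459), fell from 212, 209 and 215 to 143, 133 and 139. The copies resemble each other, so counts may be split between them. CG6654, annotated as a zinc-binding DNA-binding protein, fell from 58.3, 55.4 and 54.5 to 20.6, 20.2 and 19.6 (log2 -1.48 ± 0.056, adjusted p = 2.36e-17), with 65.4 ± 2.85 in the NAT10 knockdown. Appl, the fly amyloid precursor protein gene, fell from 6.03 ± 0.449 to 2.73 ± 0.385. CG11835 fell from 59.2 ± 2.1 to 26.2 ± 3.36, with 1.96 ± 0.0319 in the NAT10 knockdown. Among genes lower by at least 1.5-fold, the larger decreases in CPM after ImpE2 and ImpE1 included Fkbp14, which encodes a prolyl isomerase of the endoplasmic reticulum (267, 284 and 272 against 181, 177 and 177) and the uncharacterised CG15905 (196, 196 and 199 against 116, 107 and 111).

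Some genes were called at least 2-fold higher in both knockdowns, which were compared with the same control libraries. Among those with the largest change in the double knockdown, CG17716 had 2 control counts and stood at 12.8, 11.4 and 13.1 in the double knockdown and 13.6 ± 0.868 in the NAT10 knockdown. The double knockdown was at 307 (95% counting interval 84.7 to 2539) times control. The difference between the knockdowns did not pass the test for this gene (log2 -0.12 ± 0.10, adjusted p = 0.317). CG17321 stood at 6.93, 5.88 and 5.46 against 3 counts in control and at 4.54 ± 0.916 in the NAT10 knockdown. CG18003 had 0 control counts and was at least 21.1-fold higher, at 1.41, 1.48 and 1.003. The cell surface protein gene DIP-lambda, at least 7.89-fold above control, and the ion channel gene CngA averaged under 1 CPM in the double knockdown. In CngA a single library at 0.802 CPM carried most of the double knockdown level, the others being at 0.201 and 0.220. The 4 Lsp genes were also higher in both, at levels under 20 CPM with NAT10 alone depleted.

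Calls were not spread evenly over the chromosomes. On the X 20.8% of 1396 genes were higher and 10.5% lower, against 14.5% to 15% higher and 14.1% to 17.8% lower on the 4 arms of chromosomes 2 and 3. On chromosome 4, with 70 genes tested, 4.29% were higher and 32.9% lower, and the median was -0.06. Of genes used as visible markers of transgenes and stocks, y stood at 0.279, 0.07096 and 0.234 against 9.14, 6.81 and 8.92 (log2 5.30 ± 0.30, adjusted p = 9.28e-13) with 0 counts in the NAT10 knockdown, and v, with 0 control counts, stood at 1.255, 0.879 and 1.45, at least 19.7-fold higher. The genetic background of the lines and the knockdown itself cannot be told apart in this design.

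The authors' deposited table for this comparison was more one-sided. It listed 1940 genes at an FDR under 0.05, of which 1869, or 96.3%, were higher and 71 lower, against 50.3% higher in the fit described above. The higher calls overlapped at 1291 genes, 96.7% of those called here and 69.1% of those in the authors' deposited table. The lower calls overlapped at 69 genes, 5.24% and 97.2%. For 1316 of the 1318 genes called lower here the log2 fold change in the authors' deposited table was also below 0. The authors' deposited table gave ImpE2 a log2 fold change of -0.78 with an FDR of 0.000128, and it gave Hsc70-3 -0.30 (FDR 0.639), Rpn5 -0.30 (FDR 0.647) and Xrp1 -0.32 (FDR 0.547). The double knockdown libraries held 1.16 times the control counts on average. When the counts were fitted without any scaling to library size, 3202 genes were higher and 114 lower, 96.6% higher, and the median of all genes lay at 0.24. The sources used here do not say how the deposited test treated library size.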

How the data were processed

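Polyadenylated RNA of whole wing discs was sequenced from 3 genotypes with 3 libraries each. Per the submitters' processing notes the tools were RSEM, StringTie 1.3.1, HISAT2 2.1.0 and fastp 0.18.0. The sources used here do not give the step each served, the genome build or the strand setting. The authors deposited estimated counts per entry (expected counts, 8.19% to 9.11% of values not whole), which were rounded before fitting. The deposited FPKM values were used only as levels per length. From the authors' deposited comparison table the log2 fold changes and the FDR, an adjusted p-value, were read; the sources used here do not name the test behind them. Of 14168 entries 205 were assembled loci and the other 13963 carried FlyBase identifiers. Coordinates and exon overlaps came from BDGP 6.54, annotation release 115, 1-based.

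Groups followed the genotype labels. The fit covered all 9 libraries and used the robust quasi-likelihood test of edgeR 4.0.16 under R 4.3.3 after filterByExpr and TMM, and p-values were adjusted by Benjamini-Hochberg over 8487 genes at a threshold of 0.05. DESeq2 1.42.0 was an alternative, and the method was tested on simulated counts. Figures came from matplotlib 3.10.9, and scipy 1.17.1, numpy 2.4.6 and pandas 2.3.3 under Python 3.11.15 made the tables. A floor of 3 counts over a group stood in for 0. One library of these groups gave 0.150 to 0.213 CPM for 3 counts. Floors and 95% counting intervals cover counting error only. Named genes were the targeted and driver genes and the 12 called genes in each direction whose fold was largest at 5 CPM or more. Those 12 were taken only where the control and double knockdown libraries did not overlap, so their separation was fixed by the choice. Also named were the 8 in each direction with the widest difference in level among those changed at least 1.5-fold. Up to 3 called members of each list were named, with the members its paragraph is about. The last were the 10 with the largest change among those changed at least 2-fold alike in both knockdowns. Members named beside these illustrate a list's count and were chosen after their values were seen. Members and lists were chosen with earlier results of these data known. The fit without scaling was added after seeing the data.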

Additional observations from a re-analysis of the deposited data

How the results depend on the processing

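The direction of all 204 named genes with a fit held under the alternatives run on them, which left out the fit without scaling to library size and the one without assembled loci, with 0 reversals among 2629 values. Of the 185 called genes 12 lost their call under at least 1 setting, 22 of the 33 such values with a library left out, and 11 values of genes not called in the first place passed. The counts of 1335 higher, 1318 lower, 331 higher by at least 2-fold and 58 lower by at least 2-fold became 1122, 1151, 316 and 55 with DESeq2, 1299, 1378, 329 and 58 with its size factors, 1613, 1044, 337 and 58 with total counts only, 1311, 1175, 313 and 54 with only the 6 libraries compared, and 1332, 1223, 306 and 48 without assembled loci. Without a filter (11885 genes) they were 1424, 1549, 491 and 79. With at least 5 CPM in 3 libraries (7191 genes) they were 1120, 1168, 114 and 13, since most genes with large changes lie under that level, and the muscle count fell from 10 to 3 lower, the P450 count from 14 to 7 higher and the Malpighian tubule count from 7 to 2 higher. With no scaling to library size they were 3202, 114, 456 and 41, and 869 of the 1318 lower genes lay above 0 there, where the median of all genes was 0.243. Leaving out each library in turn gave 1168 to 1278, 1105 to 1277, 335 to 361 and 59 to 63. At an adjusted p under 0.01 they were 944, 912, 296 and 49. With the replicate block they were 1348, 1327, 328 and 57, and cytosolic ribosomal protein genes were higher in 17 cases in place of 11. Deviations of control and double knockdown libraries with the same number correlated at -0.01, 0.05 and 0.00. With 3 libraries in a group this cannot exclude a batch shared by libraries of the same number. Depth limits the genes near 0, where 3 counts in a library equal 0.150 to 0.213 CPM and folds are bounds. Why counts moved was not tested.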
